A study of Bos taurus with 72 samples.

Results

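ENSBTAG00000007662 and ENSBTAG00000003329 were 2 of the 29550 genes in the deposited table of bovine mammary epithelial cells (BMECs), the milk-producing cells of the udder. Both were chosen from their measured values: their level was lower in complete medium than in medium without essential amino acids (EAA), and among the single EAA it was lowest with arginine. Their levels against NEG and their order over the media are therefore a description, given with no test. The table gives no gene symbols, and 0 of its identifiers matched any of the 37063 bovine entries of RefSeq, so the 2 genes are named by identifier only and neither their function, their place in the genome nor their sequence is given.

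Wild-type primary BMECs were isolated from mammary tissue of dairy cows, separated from fibroblasts by trypsin, serum-starved overnight and then kept for 6 h in 1 of 12 media. The negative control (NEG) was DMEM-F12 medium lacking all EAA, and the positive control (POS) was complete DMEM-F12. Each of the other 10 media was NEG with a single EAA at its level in POS, namely arginine (Arg), histidine (His), isoleucine (Ile), leucine (Leu), lysine (Lys), methionine (Met), phenylalanine (Phe), threonine (Thr), tryptophan (Trp) or valine (Val). Every medium had 6 libraries, 72 in all, which the study calls biological replicates. The sources used here do not say how many cows or separate cultures they came from, so p-values measure the spread between these libraries. The epithelial label could not be checked against marker genes because no symbols were available.

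Arginine is a cationic amino acid that enters cells through dedicated membrane transporters. It is used for protein synthesis and is the precursor of urea, ornithine, polyamines, nitric oxide and creatine, and the lactating mammary gland takes up more of it than it secretes in milk protein. Cells sense its supply through proteins that act on the kinase complex mTORC1, and a lack of any EAA leaves transfer RNAs uncharged, which activates the kinase GCN2 and the transcription factor ATF4. These are general facts on arginine, and which pathway the 2 genes belong to is not known here.

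Levels are given as FPKM, the fragments on a gene per kilobase of its length after scaling for depth, so that levels can be compared between genes. Behind them lay 13427 to 120788 reads per library on ENSBTAG00000007662 and 35013 to 123826 on ENSBTAG00000003329, out of 12006111 to 18602428 reads on all genes, and counting error was small beside the spread between libraries. The libraries Arg_4, POS_4 and NEG_2, where the number is the replicate, stood apart in these genes or in the number of genes detected, and results are given with and without them. Arg_4 had 11838 genes above 0 and POS_4 had 13537, while Leu_1 had 10495 and the other 69 libraries had between 15211 and 18393. NEG_2 had 16596, against at least 17118 in the other NEG libraries. Leu_1, Arg_4 and POS_4 also had the fewest reads on genes of all libraries, at 12006111, 12803214 and 13575591. The paper lists a lower mapping efficiency for Arg_4 and Leu_1 than for any other library.

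Both genes were among the most abundant of the 12121 genes tested, those that averaged 1 FPKM or more. By mean level over the 72 libraries ENSBTAG00000003329 ranked 14 and ENSBTAG00000007662 ranked 20. In NEG, ENSBTAG00000007662 took between 0.417% and 0.489% of all reads on genes and ENSBTAG00000003329 between 0.519% and 0.597%. In POS the shares were 0.0979% to 0.125% and 0.205% to 0.286%. Shares of reads do not use the library factors of the deposited FPKM, and for both genes the POS shares lay below every NEG share.

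For ENSBTAG00000007662 the 6 NEG libraries gave 1878, 2265, 1705, 1841, 1750 and 1727 FPKM, with a mean of 1861 ± 209 (SD, n = 6). The 6 Arg libraries gave 1263, 1272, 1024, 672, 1019 and 987 FPKM, with a mean of 1039.5 ± 220.2 (SD, n = 6). The 6 POS libraries gave 392, 397, 418, 381, 449 and 433 FPKM, with a mean of 412 ± 25.9 (SD, n = 6). The 3 media did not overlap: every POS library lay below every Arg library, and every Arg library lay below every NEG library. Of all genes tested, 12.4% had all POS libraries below all NEG libraries and 8.91% had all Arg libraries below all NEG libraries. Since these contrasts chose the genes, nothing is read from those shares. The mean in POS was 77.9% lower than in NEG and the mean with Arg was 44.1% lower. Mean log2(FPKM + 1) was 2.17 lower in POS than in NEG, a difference of -2.17, and Arg minus NEG was -0.86. With FPKM rescaled to equal column totals, POS minus NEG was -1.82 and Arg minus NEG was -0.56.

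For ENSBTAG00000003329 the NEG libraries gave 2269, 2681, 2055, 2126, 2086 and 2149 FPKM, with a mean of 2228 ± 234 (SD, n = 6). With Arg the values were 1557, 1573, 1457, 2659, 1422 and 1485 FPKM, with a mean of 1692 ± 477 (SD, n = 6). In POS they were 796, 827, 896, 1067, 886 and 899 FPKM, with a mean of 895 ± 93.9 (SD, n = 6). All POS libraries lay below all Arg and all NEG libraries, but Arg and NEG overlapped through a single library. Arg_4, at 2659 FPKM, was nearly as high as the highest NEG library, and the other 5 Arg libraries lay below the whole NEG range. The mean in POS was 59.8% lower than in NEG, and the mean with Arg was 24.0% lower. On the log2(FPKM + 1) scale the differences were -1.31 for POS minus NEG and -0.43 for Arg minus NEG. With FPKM rescaled to equal column totals the latter was -0.12. For either gene, fewer cells that express it and less of its RNA per cell cannot be told apart in these bulk samples.

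**Figure D1:**
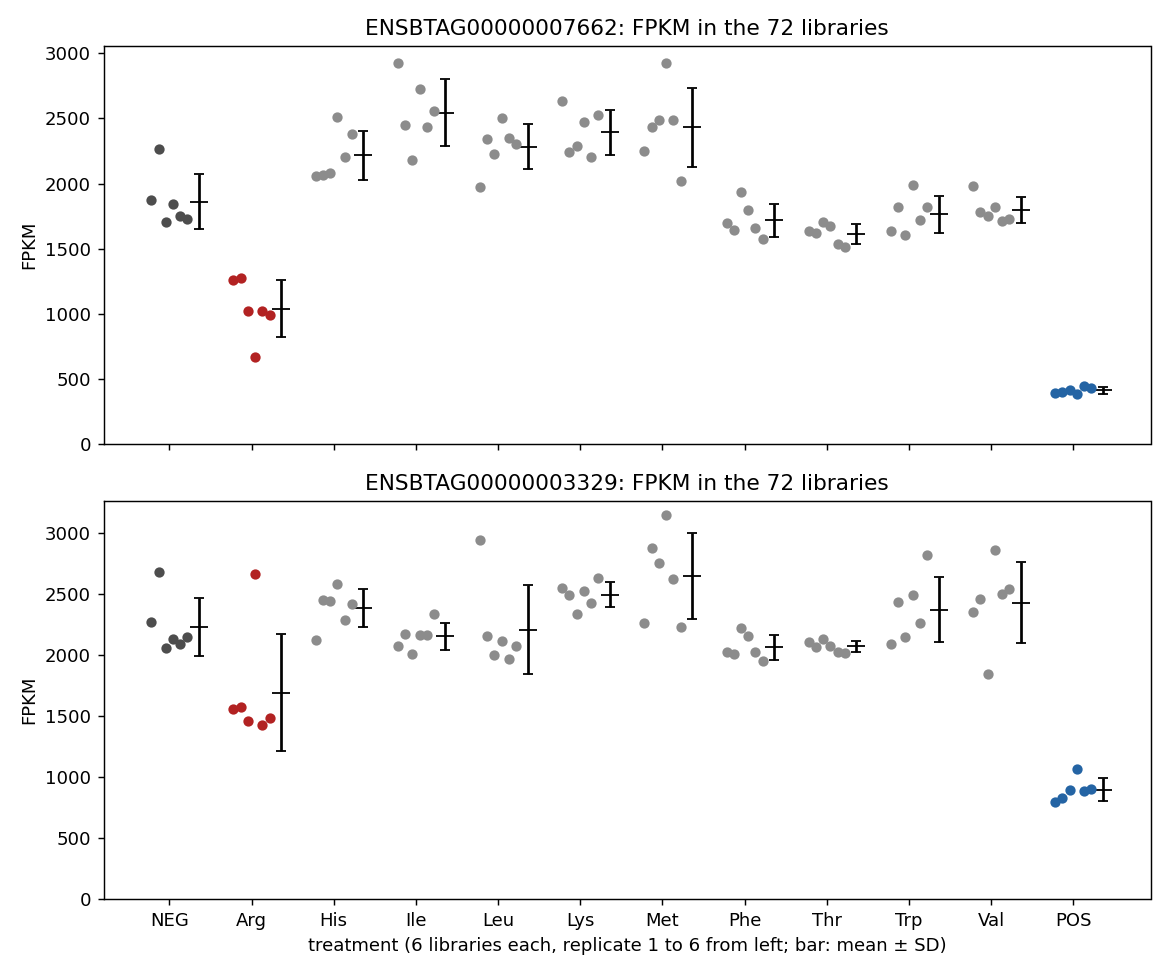
FPKM of each gene in the 12 media, with 1 point for each of the 6 libraries per medium, replicate 1 on the left, and a bar for the mean ± SD beside them. The POS libraries of both genes (381 to 449 and 796 to 1067 FPKM) sit below all other libraries, and Arg_4 stands below the other Arg libraries in ENSBTAG00000007662 and above them in ENSBTAG00000003329.

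With the other 9 EAA, means of ENSBTAG00000007662 lay between 13.2% below and 36.8% above NEG. For ENSBTAG00000007662 the order from the lowest mean was POS, Arg, Thr, Phe, Trp, Val, NEG, His, Leu, Lys, Met and Ile. Thr came next above Arg, with a lowest value of 1512, a median of 1631 and a highest of 1703 FPKM and a mean of 1615 ± 76.0 (SD, n = 6). All 6 Thr libraries lay below the lowest NEG library, at 1705 FPKM, and 6.17% of the genes tested had Thr libraries placed so. Phe had a lowest value of 1575, a median of 1676 and a highest of 1933 FPKM. Trp ran from 1603 through a median of 1770 to 1992 FPKM, and Val from 1710 through 1765 to 1983 FPKM. These media overlapped NEG, with 4 of 6 Phe, 2 of 6 Trp and 0 of 6 Val libraries below the NEG range.

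The other 5 media of ENSBTAG00000007662 had means above NEG. His had a lowest value of 2062, a median of 2143 and a highest of 2510.0 FPKM, with a mean 19.1% above NEG. Leu ran from 1977 through a median of 2323 to 2505 FPKM, with a mean 22.7% above NEG, and Lys from 2201 through 2380.4 to 2631 FPKM, with a mean 28.6% above. Met ran from 2019 through 2458 to 2929 FPKM, 30.7% above in the mean. Ile was highest, from 2179 through 2501 to 2928 FPKM, with a mean of 2545 ± 259 (SD, n = 6), 36.8% above. Each of the 5 overlapped NEG only through NEG_2, at 2265 FPKM. Without that library all 6 libraries of each lay above the NEG range, a placing found in 16.3% of the genes tested for His, 21.0% for Leu, 12.3% for Lys, 10.8% for Met and 14.9% for Ile.

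Between neighbours in this order, the ranges did not overlap for POS and Arg, whose means were 628 FPKM apart, nor for Arg and Thr, whose means were 575 FPKM apart. All Arg libraries lay below all Thr libraries in 6.57% of the genes tested, from which nothing is read, since a low level with Arg chose the gene. NEG and His were 356 FPKM apart, more than either SD, but their ranges overlapped. All other neighbours differed by less than the larger of their SDs. Media further apart in the order did separate: the highest Thr library, at 1703 FPKM, lay below the lowest His, Leu, Lys, Met and Ile libraries, as in 2.15% of the genes tested.

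For ENSBTAG00000003329 the order from the lowest mean was POS, Arg, Phe, Thr, Ile, Leu, NEG, Trp, His, Val, Lys and Met. Phe had a lowest value of 1948, a median of 2025 and a highest of 2218 FPKM, and Thr ran from 2014 through 2072 to 2128 FPKM with the smallest SD of the 12 media, 44.3 FPKM. Ile ran from 2007 through 2164 to 2333 FPKM. Leu had a median of 2092 FPKM and ran from 1969 to 2941 FPKM, the last value being Leu_1, against a highest of 2157 FPKM in the other 5. Means in these 4 media were 0.90% (Leu) to 7.41% (Phe) below NEG, and all 4 overlapped NEG. Without Leu_1 the Leu mean was 2061 ± 78.2 FPKM (SD, n = 5), 7.48% below NEG and slightly under that of Phe, so its place in the order rested on that library.

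Above NEG, ENSBTAG00000003329 had medians of 2345 FPKM with Trp (from 2085 to 2815), 2429 with His (from 2124 to 2581) and 2480 with Val (from 1847 to 2863). Lys ran from 2338 through 2507 to 2628 FPKM, and Met was highest, from 2231 through 2684 to 3142 FPKM with a mean of 2646 ± 356 (SD, n = 6), 18.8% above NEG. Every one of these media overlapped NEG, and 1 of 6 Val libraries lay below its range. Lys overlapped it only through NEG_2, and without that library all 6 Lys libraries lay above the NEG range, as in 12.3% of the genes tested. POS and Arg, 797 FPKM apart in the mean, were the only neighbours whose ranges did not overlap. Arg and Phe differed by 371 FPKM, less than the SD of Arg, which Arg_4 widened. The genes differed in where Ile stood: it was highest of 12 in ENSBTAG00000007662 and 3.41% below NEG in ENSBTAG00000003329. The places of NEG itself rested on NEG_2. Without that library the NEG mean of ENSBTAG00000003329 was 2137 FPKM, below Ile (2152) and Leu (2208), and that of ENSBTAG00000007662 was 1780.0 FPKM, below Val (1795).

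The position of the extremes was also counted over libraries. In both genes all 6 POS libraries lay below all 66 others, as in 1.72% of the genes tested. All 6 Arg libraries lay below all 54 libraries of the other 9 EAA in ENSBTAG00000007662, as in 43 genes or 0.355% of those tested. In ENSBTAG00000003329 this held only without Arg_4, where 81 genes or 0.668% had it. The rule chose the genes for this order, so these shares are given only as its background.

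How much of the POS effect arginine alone gave was expressed as the Arg minus NEG difference in percent of the POS minus NEG difference, both on means of log2(FPKM + 1). For ENSBTAG00000007662 the share was 39.8% (delta-method SE 6.57). Taken library by library, the 6 Arg libraries gave 25.4%, 25.0%, 39.4%, 67.4%, 39.7% and 41.8%. For ENSBTAG00000003329 the share was 32.6% (SE 11.1), with 38.8%, 37.7%, 46.1%, -19.9%, 48.8% and 44.1% in the 6 libraries. Arg_4, the fourth value in each series, was the highest in the first gene and the only negative one in the second, and the 2 shares differed by less than the larger of their SEs. On mean FPKM instead of the log scale, the shares were 56.7% (SE 6.72) and 40.2% (SE 15.3), because a log scale gives more weight to changes at low levels. The share also moved with the scaling of libraries: with FPKM rescaled to equal column totals it was 30.5% and 12.6%, and with total recovered reads 36.5% and 26.1%.

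No other single EAA had a mean share above 9.17%. For ENSBTAG00000007662 the other 9 means lay between -20.9% with Ile and 9.17% with Thr, where a negative share is a level above NEG. For ENSBTAG00000003329 they lay between -18.5% with Met and 8.09% with Phe. Single libraries of these 9 media ran from -30.5% to 13.5% in the first gene and from -38.2% to 20.1% in the second. All 6 Arg libraries of ENSBTAG00000007662 and 5 of 6 of ENSBTAG00000003329 were above those ranges.

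**Figure D2:**
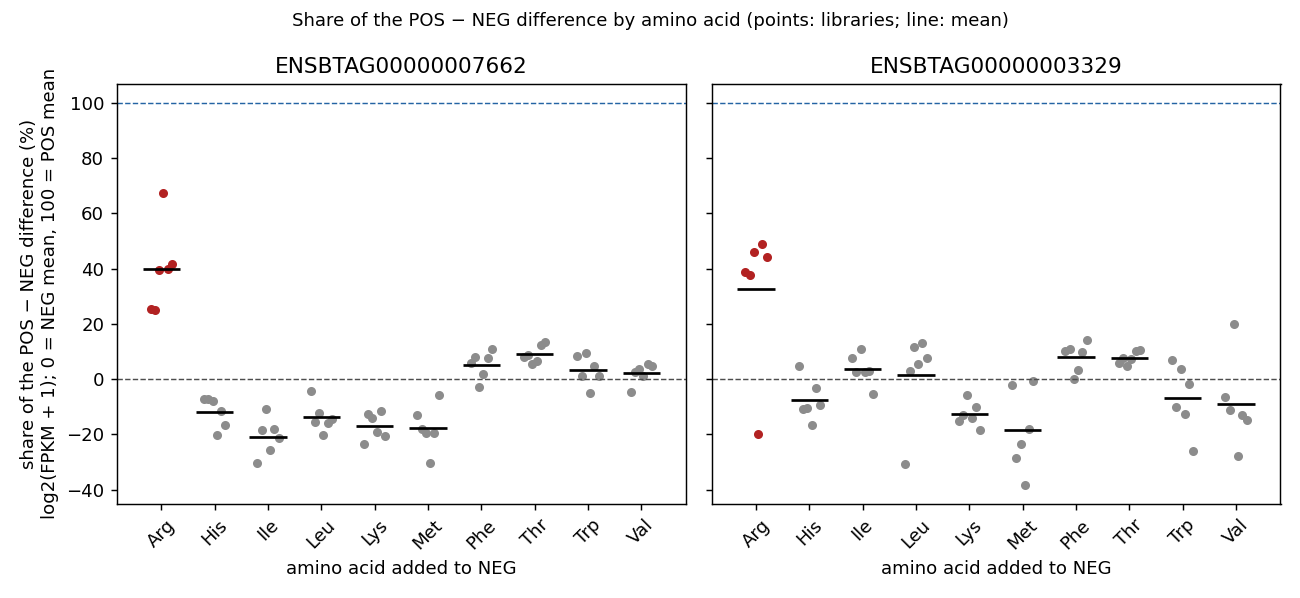
Share of the POS minus NEG difference, in percent on the log2(FPKM + 1) scale, for each single EAA, with 1 point per library and a line at the mean, where 0 is the NEG mean and 100 the POS mean. Arg has the highest mean in both genes (39.8% and 32.6%), and its 1 negative library in ENSBTAG00000003329 is Arg_4.

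Without Arg_4, POS_4 and NEG_2 both genes were still lowest in POS, then with Arg, and higher in NEG. ENSBTAG00000007662 then had means of 1780.0 ± 75.2 in NEG, 1113 ± 142 with Arg and 418 ± 23.7 FPKM in POS (SD, n = 5). ENSBTAG00000003329 had 2137 ± 82.2, 1499 ± 64.6 and 861 ± 46.6 FPKM (SD, n = 5). ENSBTAG00000007662 still had no overlap between the 3 media, and ENSBTAG00000003329 now had none either. Of the genes tested, 19.3% had all remaining POS libraries and 13.3% all remaining Arg libraries below all remaining NEG libraries. The SD of Arg in ENSBTAG00000003329 fell from 477 to 64.6 FPKM, while for ENSBTAG00000007662 it fell from 220.2 to 142 FPKM.

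Without the 3 libraries the shares changed places on the log2 scale and stayed about as far apart. ENSBTAG00000007662 gave 32.8% (SE 3.998), with Arg minus NEG at -0.68 and POS minus NEG at -2.09. ENSBTAG00000003329 gave 39.0% (SE 2.62), with Arg minus NEG at -0.51 and POS minus NEG at -1.31. On mean FPKM they drew together, at 49.0% (SE 4.83) and 50.03% (SE 2.80), against 56.7% and 40.2% with all libraries. So which of the genes had the larger share turned with these libraries, and Arg_4 alone was enough to turn it, with 34.3% and 43.1% when it was the only library left out. Leaving out POS_4 alone gave 40.2% and 31.4%, and leaving out NEG_2 alone gave 38.1% and 29.7%.

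Levels in POS and with Arg were compared by limma between the 6 POS and 6 Arg libraries, over all 12121 genes. The rule set no order between POS and Arg, but it used the levels of both, so the p-values describe these libraries and are not independent of the choice of the genes. POS minus Arg was -1.31 (SE 0.16) for ENSBTAG00000007662, a level 2.47-fold lower on the log2(FPKM + 1) scale, with a Benjamini-Hochberg adjusted p of 2.06e-04 by limma. For ENSBTAG00000003329 it was -0.89 (SE 0.17), 1.85-fold lower, with an adjusted p of 4.93e-03 by limma. With no filter on mean FPKM the second call was lost, at an adjusted p of 0.10 by limma. Every POS library lay below every Arg library in both genes. By limma 11.0% of the genes tested differed between POS and Arg, 6.34% were lower in POS than with Arg, and all POS libraries lay below all Arg libraries in 4.95%. Without Arg_4, POS_4 and NEG_2 the last share was 12.9%. Ranked by size among all genes lower in POS than with Arg, ENSBTAG00000007662 was at 145 and ENSBTAG00000003329 at 457. Without the 3 libraries POS minus Arg was -1.40 (adjusted p = 3.1e-06 by limma) and -0.80 (adjusted p = 2.2e-05 by limma), where 30.5% of the genes tested differed between the media and 16.4% were lower in POS.

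The ratio of the 2 genes within a library does not depend on how libraries are scaled. ENSBTAG00000003329 divided by ENSBTAG00000007662 was between 1.16 and 1.24 in the 6 NEG libraries. It was 1.23, 1.24, 1.42, 3.96, 1.40 and 1.503 in the Arg libraries, where 3.96 was Arg_4. In POS it was 2.03, 2.08, 2.14, 2.80, 1.97 and 2.08, where 2.80 was POS_4. The POS ratios lay above all NEG ratios and above 5 of 6 Arg ratios, so ENSBTAG00000007662 was at a smaller fraction of its NEG level in POS than ENSBTAG00000003329 did. Ile had the lowest mean ratio, 0.852, with libraries from 0.708 to 0.921. Ile was thus a medium in which ENSBTAG00000007662 was the more abundant of the pair in every library.

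**Figure D3:**
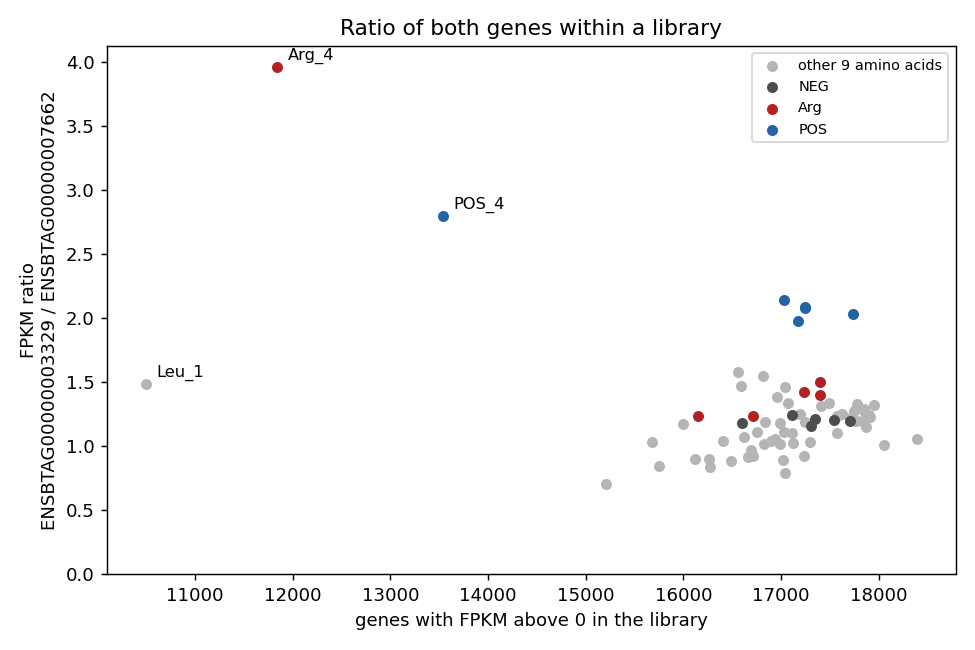
FPKM of ENSBTAG00000003329 divided by that of ENSBTAG00000007662 in each of the 72 libraries, against the number of genes above 0 in that library, coloured by medium. Ratios lie between 1.16 and 1.24 in NEG and between 1.97 and 2.80 in POS, and Arg_4, POS_4 and Leu_1 lie to the left with the highest ratio of their media.

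The 3 libraries with the fewest genes above 0 placed the 2 genes in opposite ways. In Leu_1, Arg_4 and POS_4, ENSBTAG00000007662 was the lowest of the 6 libraries of its medium and ENSBTAG00000003329 the highest. In Leu_1 the first gene was at 1977 FPKM against 2226 to 2505 in the other 5, and the second at 2941 FPKM against 1969 to 2157. In POS_4 the first gene was only just the lowest, at 381 FPKM against 392 to 449 in the other 5. Over the 12 media, the library with the fewest genes above 0 was the highest of 6 for ENSBTAG00000003329 in 9 media and for ENSBTAG00000007662 in 6. It was the lowest in 1 and 4 media. In NEG_2 both genes were the highest of the 6. How many of the other genes tested were placed in these ways was not counted, so nothing is read from these placings. The part of the number of genes above 0 in these levels was not tested.

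The sum of all FPKM per library was 529018 to 724549 in NEG, 390534 to 497709 with Arg and 389353 to 552744 in POS. ENSBTAG00000054661, named here after its values were seen, held 3.99% to 7.68% of that sum in NEG, 0.763% to 2.97% with Arg and 0.156% to 3.37% in POS, and its part in the difference between sums was not tested. Scaled to equal totals, the median of all genes moved from -0.06 to 0.23 for POS minus NEG and from -0.08 to 0.18 for Arg minus NEG. Relative to that median, ENSBTAG00000007662 differed by -2.05 and -0.74, against -2.11 and -0.79 as deposited. ENSBTAG00000003329 differed by -1.20 and -0.30 relative to the median, against -1.25 and -0.35 as deposited. A change of scaling moves all genes nearly alike, so these values relative to the median are close by construction.

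The pattern that chose the genes was not rare among the genes tested. Of 12121 genes, 641 (5.29%) had a lower mean in POS than in NEG and their lowest single-EAA mean with Arg. Among these 641, ENSBTAG00000003329 ranked 2 and ENSBTAG00000007662 ranked 3 by level. By the size of the fall in POS they ranked 99 and 27, and by the distance from Arg to the next EAA, 0.32 and 0.66 on the log2 scale, they ranked 109 and 14. Of the 977 genes at least 1 lower in POS than in NEG on the log2 scale, 160 (16.4%) were lowest with Arg, while 442 were lowest with Leu and 199 with Val. Without Arg_4, POS_4 and NEG_2 there were 554 such genes, of which 134 (24.2%) were lowest with Arg, 211 with Leu and 84 with Val. The 2 genes kept Arg as their lowest single EAA. Leu_1, the library with the fewest genes above 0, was kept in both counts, and its part in the Leu numbers was not tested.

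Likeness of pattern was measured as Pearson's r over the 12 means of log2(FPKM + 1), as a description. The media share the same libraries for every gene, and POS and Arg carry much of the spread. ENSBTAG00000014921 was most like ENSBTAG00000007662, with r = 0.992, at 192 ± 62.0 in NEG, 69.9 ± 15.4 with Arg and 27.9 ± 4.80 FPKM in POS (SD, n = 6). ENSBTAG00000004547 came next with r = 0.983, at the much lower level of 3.43 ± 0.123 FPKM in NEG (SD, n = 6), and it was listed at 0 in Arg_4. ENSBTAG00000001987 was the third with r = 0.980, at 87.0 ± 6.87 in NEG, 61.5 ± 11.5 with Arg and 42.6 ± 6.51 FPKM in POS (SD, n = 6). Its Arg_4 value of 84.7 FPKM lay above the 54.3 to 58.7 FPKM of the other Arg libraries, as in ENSBTAG00000003329.

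Most like ENSBTAG00000003329 was ENSBTAG00000018134, with r = 0.995 and levels of 299 ± 81.0 in NEG, 184 ± 27.7 with Arg and 77.9 ± 12.9 FPKM in POS (SD, n = 6). ENSBTAG00000007596 (r = 0.974) and ENSBTAG00000052194 (r = 0.973) followed, the latter at 40.2 ± 6.40 in NEG, 26.8 ± 5.04 with Arg and 11.4 ± 1.57 FPKM in POS (SD, n = 6). In all 3 of these genes Arg_4 was the lowest Arg library, unlike in ENSBTAG00000003329 itself. All 6 named genes had their lowest single-EAA mean with Arg. The 2 chosen genes had r = 0.955 with each other and stood at ranks 32 and 26 in each other's order of likeness. Of the 3 genes named for each, 2 remained among the top 3 without Arg_4, POS_4 and NEG_2, and 1 remained with Spearman's rho.

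**Figure D4:**
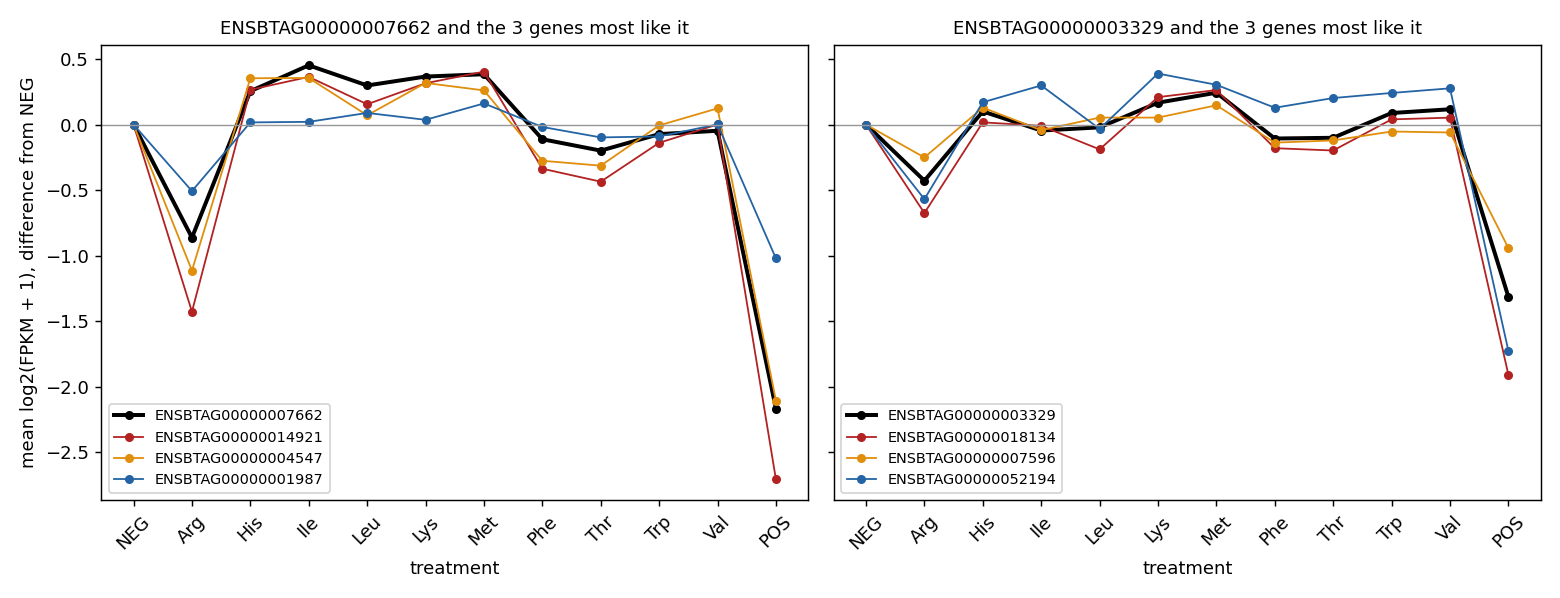
Difference from NEG in mean log2(FPKM + 1) over the 12 media for the 2 chosen genes and the 3 genes most like each, where lines only join the points of a gene. The lines dip at Arg and lie lowest at POS, where the chosen genes are at -2.17 and -1.31.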

How the data were processed

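The authors trimmed the reads of the 72 libraries with Trimmomatic, mapped them with HISAT2 (version 2.0.5), assembled them with StringTie (version 1.3.3b) and deposited FPKM. The submitters' processing notes also name featureCounts (version 1.5.0-p3) and DESeq2 (version 1.20.0). No source used here names the genome build. Labels and paper name different library kits and culture plates, shared by all libraries.

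Whole reads were recovered as FPKM times gene length times a library factor, and for all 23683 genes above 0, 100% of values came within 0.001 of a whole number. The factors equalled median-of-ratios size factors up to a constant. PCR copies were not marked, so reads are not independent molecules.

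POS and Arg were compared by limma (version 3.58.1) in R (version 4.3.3) with trended variance, on log2 of FPKM plus a pseudocount of 1. Tested were the 12121 genes whose mean FPKM reached 1, with Benjamini-Hochberg adjustment and a threshold of 0.05. On data simulated for this comparison of 12121 genes, 100 of 100 genes changed 2-fold were called. So were 100 of 100 genes changed 4-fold, and 14 unchanged genes were called as well. The simulation gave every gene the same spread between replicates and held no library that stood apart. It changed only genes above a minimum of reads, so it does not measure how many changes are found in the real libraries. Other steps used Python (version 3.11.15), numpy (version 2.4.6), pandas (version 2.3.3), scipy (version 1.17.1) and matplotlib (version 3.10.9).

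The 2 genes, the lists and the tests were chosen with earlier results of these data known. The rule for other named genes took the 3 most similar to each. Alternatives were a pseudocount of 0.1, no filter, equal column totals, median ratios, medians in place of means, array weights, 1 fit of all 12 media, the replicate number as a block, Spearman's rho, and libraries left out. Voom on recovered reads, scaling by total recovered reads, and Leu without Leu_1 were added after the data were seen. Lists by gene symbol (arginine transport and metabolism, amino acid response, sterol synthesis, epithelial and fibroblast markers) were not run, since 0 identifiers matched a symbol.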

Additional observations from a re-analysis of the deposited data

Results flagged for a closer look

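Dixon's test was applied to each gene in each medium, 24 groups of 6 libraries, of which chance alone would single out about 1.2. In 4 of them 1 library lay apart. Both genes were measured in the same libraries, so the groups are not independent. NEG_2 and Arg_4 had been named as apart beforehand, so no excess over chance is read from this. In NEG, NEG_2 was apart in both genes, at 2265 FPKM for ENSBTAG00000007662 against 1705 to 1878 in the other 5, and at 2681 FPKM for ENSBTAG00000003329 against 2055 to 2269. ENSBTAG00000003329 was also apart in Arg_4, at 2659 FPKM against 1422 to 1573, and in Leu_1, at 2941 FPKM against 1969 to 2157.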

How the results depend on the processing

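Of 200 recomputed values, 186 kept their direction and side of the threshold or moved by less than the replicate spread. Of the rest, 13 moved further, 1 lost its call and 0 reversed. Counts of genes were judged by their ratio to the main count instead. Rescaling by median ratios could move no value beyond rounding, since the deposited factors already equalled such factors. The replicate block could not move a difference of means. With no filter on mean FPKM, POS minus Arg of ENSBTAG00000003329 stayed at -0.89 with an adjusted p of 0.10 by limma, over more genes. Genes called between POS and Arg numbered 1335, 6787 with array weights, 3535 in 1 fit of all 12 media and 3692 without Arg_4, POS_4 and NEG_2. With single libraries left out they ran from 944 to 2112, with 2112 without Arg_4 and 2011 without POS_4. With equal column totals, POS minus NEG was -1.82 for ENSBTAG00000007662 and -0.97 for ENSBTAG00000003329, and Arg minus NEG was -0.56 and -0.12. With total recovered reads, POS minus NEG of ENSBTAG00000007662 was -2.03. Its share on mean FPKM was 56.7%. The share of ENSBTAG00000003329 with equal column totals was 12.6%. That move counted as within the spread, since the SD over the Arg libraries was 26.1 percentage points, which Arg_4 widened. Apart from the scalings, whose construction shifts all genes, the cause was not tested.

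Leaving out each library in turn, POS minus Arg ran from -1.43 to -1.24 for ENSBTAG00000007662 (limma adjusted p 1.2e-05 to 0.00096) and from -0.94 to -0.75 for ENSBTAG00000003329 (0.00083 to 0.015). POS minus NEG ran from -2.19 to -2.11 and from -1.37 to -1.26, Arg minus NEG from -0.93 to -0.74 and from -0.57 to -0.37, and the share from 34.3% to 42.7% and from 29.4% to 43.1%.

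Replicate numbers did not pair the libraries: deviations of same-numbered POS and Arg libraries correlated between -0.29 and 0.68, and 1 of 6 numbers matched best with itself. With the replicate number as a block, 1721 genes were called, and POS minus Arg kept its call in both genes (limma adjusted p 9.2e-04 and 0.0028). Counting error was small for these 2 genes, but the part of read depth in their levels was not tested.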
